A study of Mus musculus with 38 samples.

Results

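A set of 10 genes that answer to glucocorticoids, or carry the glucocorticoid signal, were followed in the left ventricle of a mouse model of HFpEF, the form of heart failure in which the ejection fraction is preserved. They were the receptor gene Nr3c1 and the responsive genes Fkbp5, Tsc22d3, Zbtb16, Sgk1, Klf9, Klf15, Per1, Mt1 and Mt2, taken by name from the count and TPM tables. All 10 were among the 29564 genes listed and all 10 were among the 13765 genes deep enough to test. The tissue was whole left ventricle from 38 wild-type C57BL6 mice, read by bulk RNA-seq with 1 library per mouse. The non_failing group held 8 control mice given vehicle, and the HFpEF+Veh group held 8 mice of the disease model given vehicle. The HFpEF+TYA-018 group held 11 model mice given TYA-018, an inhibitor of the deacetylase HDAC6, and the HFpEF+SGLT2i group held 11 model mice given empagliflozin, an inhibitor of the renal glucose transporter SGLT2. Every HFpEF group therefore shared the model itself, which the study's methods describe as a high-fat diet with the nitric oxide synthase inhibitor L-NAME. The sample labels give no age, and they mark all mice as Female while the study's text describes male animals. The series title gives a treatment of 3 months, while the study's text gives a shorter one.

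Cortisol, or corticosterone in mice, enters cells and binds the glucocorticoid receptor, which is kept ready for the hormone by HSP90 and its partner proteins. The receptor then moves to the nucleus and switches on a set of genes that includes its own brake, Fkbp5, the leucine zipper protein gene Tsc22d3 (also called GILZ), the kinase gene Sgk1 and several transcription factors. In the heart, KLF15 is known as a regulator of lipid and amino acid use that follows the daily hormone cycle, and the metallothioneins Mt1 and Mt2 bind zinc and copper and answer both to metals and to glucocorticoids. HSP90 is also a known substrate of HDAC6, which is the protein that TYA-018 inhibits.

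The results below turn on Mt1 and Mt2, so the bases before their starts are shown. The sequences are from RefSeq on GRCm38.p6, whose table held 8 of the 10 genes in 16 windows. Each line gives the 250 bases before the RefSeq start on the plus strand, Mt1 at chr8:94178839-94179088 and Mt2 at chr8:94172368-94172617. Capitals of 7 letters mark the core of a metal response element, searched on both strands as TGCACNC or TGCGCNC, and the run of 13 capitals in Mt1 marks a match to a glucocorticoid response element, searched as GNACA and TGTNC with 3 bases between them, a motif that reads alike on both strands.
Mt1: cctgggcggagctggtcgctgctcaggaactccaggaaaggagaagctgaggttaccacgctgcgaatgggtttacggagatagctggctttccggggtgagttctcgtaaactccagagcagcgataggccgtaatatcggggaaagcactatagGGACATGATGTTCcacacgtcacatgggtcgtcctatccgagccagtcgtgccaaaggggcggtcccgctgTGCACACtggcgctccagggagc
Mt2: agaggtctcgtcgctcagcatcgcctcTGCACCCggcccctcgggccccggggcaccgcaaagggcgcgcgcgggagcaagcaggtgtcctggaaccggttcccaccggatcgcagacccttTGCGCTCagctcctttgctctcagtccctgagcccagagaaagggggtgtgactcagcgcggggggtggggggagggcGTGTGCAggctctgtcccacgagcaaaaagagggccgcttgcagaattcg
Mt2 held 3 metal cores, which 1.26% of all 32851 windows of this length matched or exceeded, and Mt1 held 1, where 21.4% of windows held 1 or more. The glucocorticoid response element letters occurred in 0.387% of windows, among them those of Mt1 and of 1 Sgk1 start. An E-box (CACGTG), the site of clock proteins, stood in 6.02% of all windows and in windows of Fkbp5, Klf15, Per1 and Sgk1. Such matches describe the letters and say nothing of binding. The Mt2 and Mt1 genes lie 5513 bases apart on the plus strand of GRCm38, at chr8:94172664-94173568 and chr8:94179082-94180327, and like the other 8 members they are annotated as protein-coding. These gene positions, and those given below, are from GENCODE, whose starts differ from those of RefSeq, so that the last bases of the Mt1 line lie within the gene as GENCODE gives it.

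Total counts ranged from 21451631 to 59280407 per library, so each of the 10 genes was counted well: the lowest count of any of them in any library was 113, for Klf15. All 8 of 8 cardiomyocyte markers were present, with a summed level of 18281 to 34361 TPM per library. In 36 of 38 libraries that sum exceeded the sum of the 6 erythrocyte markers, and in vehicle libraries V2526 and V2529 the erythrocyte sum was the higher, at 26438 and 41877 TPM. Vehicle library V2523 stood apart, since its 15 hepatocyte markers summed to 1884 TPM against at most 58.2 TPM in the other vehicle libraries. The part of those transcripts in any vehicle value was not tested. The vehicle differences of the 10 genes, and of the other glucocorticoid targets called below by edgeR, are given with and without V2523. Those of the marker genes and of the other lists are given with V2523 alone. In whole tissue, fewer cells of a type and less RNA per cell cannot be told apart.

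In non_failing hearts the 10 genes spanned a wide range of levels. Mt1 was highest at 305 ± 67.5 TPM (SD, n = 8), and TPM values are per transcript length, so they can be set against each other. Sgk1 followed at 72.4 ± 23.5 TPM, then Mt2 at 41.9 ± 21.9, Tsc22d3 at 38.5 ± 13.7, Per1 at 23.6 ± 11.5 and Klf9 at 22.5 ± 3.38 TPM. The receptor Nr3c1 stood at 8.70 ± 1.05 TPM, close to Klf15 at 6.98 ± 2.43, Fkbp5 at 5.32 ± 3.82 and Zbtb16 at 4.86 ± 4.39 TPM. Of the neighbours in this order, only Mt1 with Sgk1 and Klf9 with Nr3c1 had ranges that did not overlap over the 8 libraries. The genes also differed in their steadiness. Zbtb16 spanned 13.4-fold between the lowest and highest of the 38 libraries, Fkbp5 9.14-fold and Mt2 8.34-fold, whereas Klf9 spanned 1.97-fold and Nr3c1 1.94-fold. Within groups the SD of log2 CPM was 0.98 for Zbtb16, 0.74 for Fkbp5 and 0.17 for Nr3c1, against ranges of the group means of 0.20, 0.25 and 0.074. The SD was also the larger for Tsc22d3, Sgk1 and Per1. For Mt1, Mt2, Klf9 and Klf15 the SD was 0.36, 0.67, 0.25 and 0.61, and the range of the group means was larger, at 0.61, 0.68, 0.27 and 0.62.

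**Figure D1:**
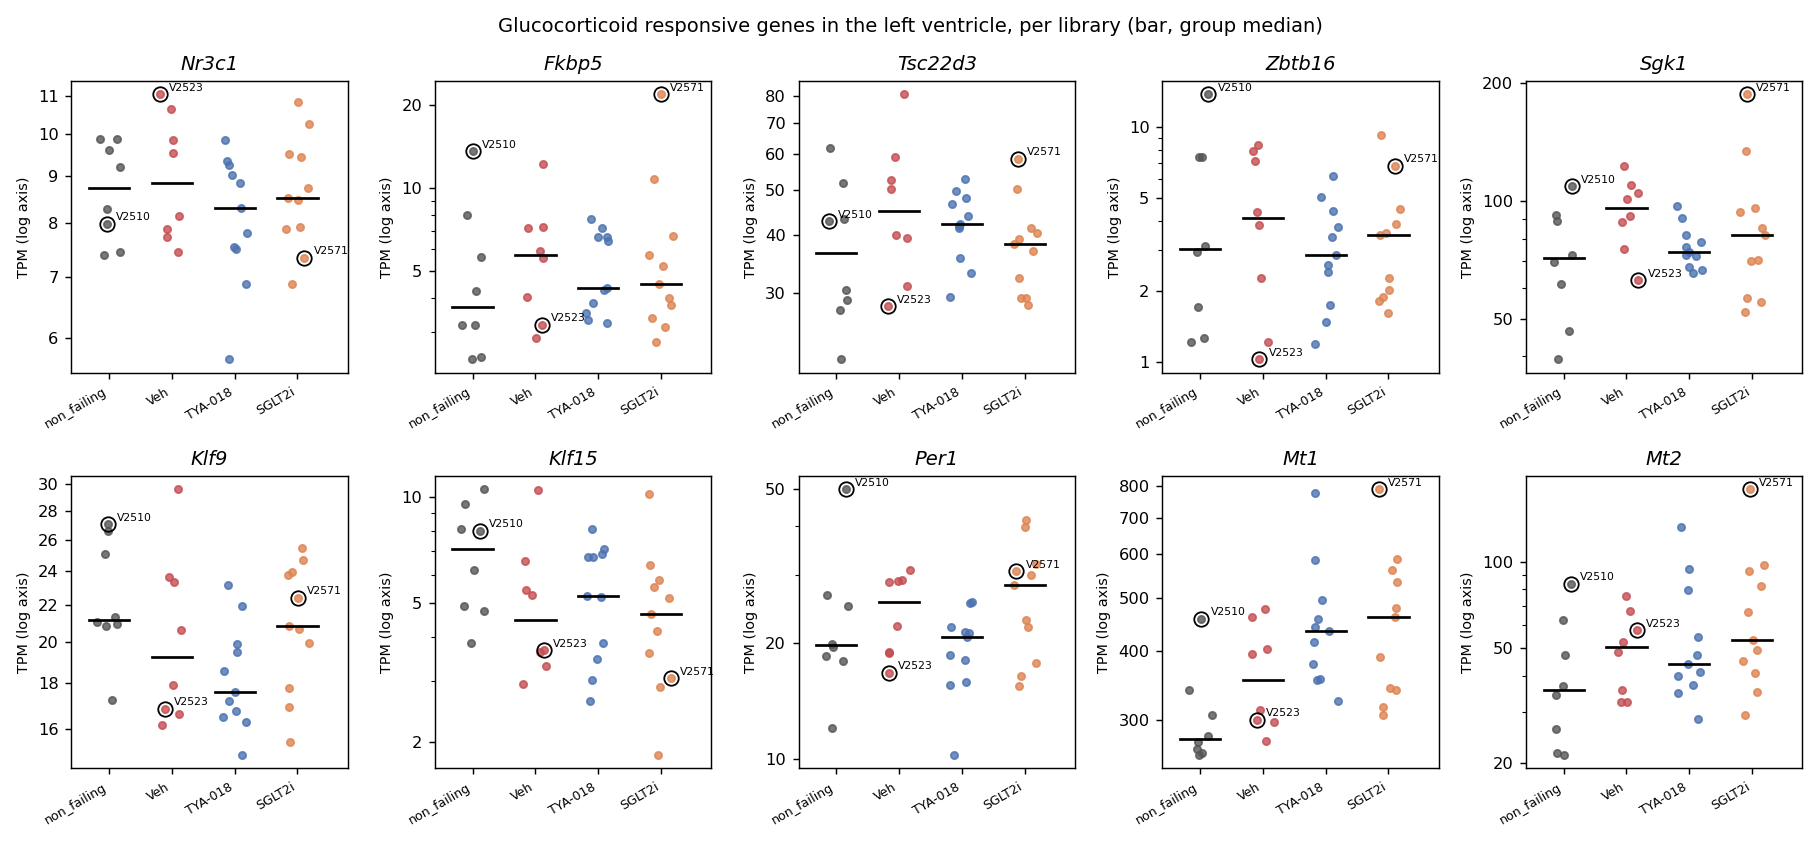
Level of each of the 10 genes in TPM on a log axis, with 1 point per library and a bar at the median of each group, which held 8 mice without a drug and 11 mice with one; circles name libraries V2510, V2523 and V2571. The groups overlap for every gene, and Mt1 medians go from 277 TPM in non_failing to 435 TPM with TYA-018 and 461 TPM with SGLT2i.

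The disease model by itself left the 10 genes without a detected change. None of the 10 passed the edgeR quasi-likelihood test at an adjusted p under 0.05 in HFpEF+Veh against non_failing, where 3.15% of all tested genes passed. None had an unadjusted p under 0.05 either, against 15.9% of all genes, and DESeq2 also called none. Of the 10, 5 were higher and 5 lower, with a median log2 fold change of 0.037 against 0.011 over all genes. The drug groups against vehicle gave the same count of 0 called, with TYA-018 (1.93% of all genes called) and with SGLT2i (0.85%), and DESeq2 called none there. In each of these comparisons Mt1 alone of the 10 had an unadjusted p under 0.05, as did 17.5% and 10% of all genes. Against non_failing hearts, Mt1 rose in both drug groups and was the only member called: 1 of 10 with TYA-018, where 7.39% of all genes were called and 4% were called higher, and 1 of 10 with SGLT2i, where 6.45% were called and 3.46% higher. At an unadjusted p under 0.05 stood 2 of 10 with TYA-018 (Mt1 and Klf9), against 22% of all genes, and 2 of 10 with SGLT2i (Mt1 and Mt2), against 19.6%. With 1 call in 10, these shares are near the background. All comparisons that share a group of mice are read side by side and not as independent evidence.

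**Figure D2:**
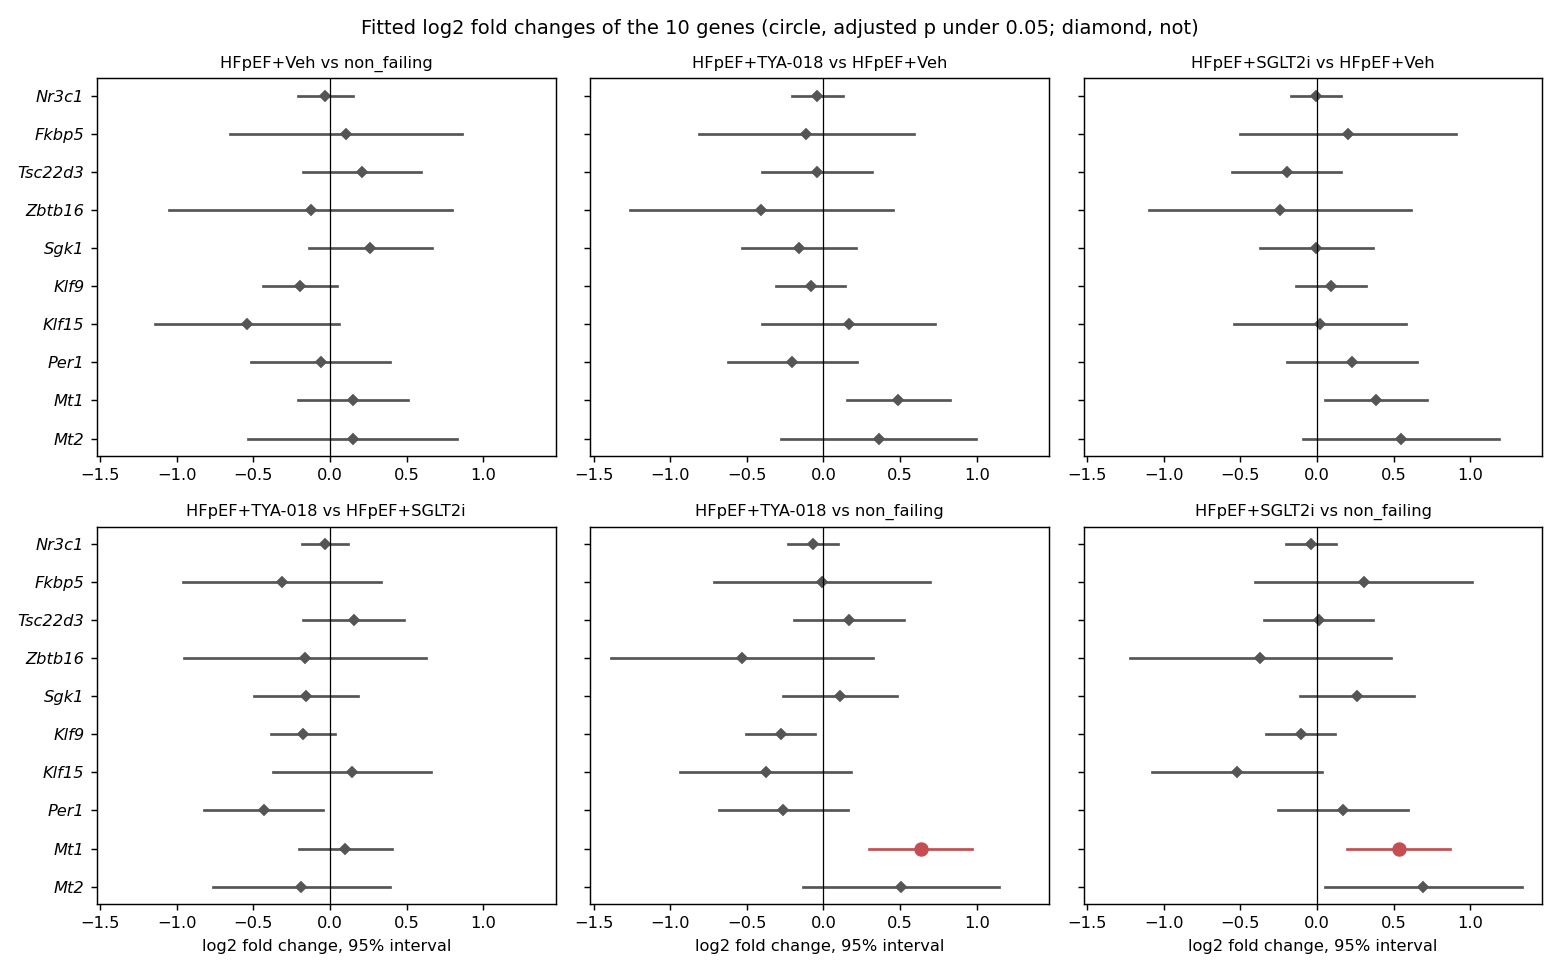
Fitted log2 fold change with its 95% interval for the 10 genes in the 6 comparisons, from 1 edgeR model of all 38 libraries; red circles passed an adjusted p under 0.05 and grey diamonds did not. Mt1 against non_failing is the gene that passed, at 0.63 with TYA-018 and 0.53 with SGLT2i, and the intervals of Zbtb16 and Fkbp5 are wide beside that of Nr3c1.

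Mt1, a cysteine-rich protein that buffers zinc and copper, was the gene with the clearest group pattern. Non_failing libraries read from 259 to 458 TPM with a median of 277. Vehicle-treated HFpEF libraries read from 275 to 476 TPM with a median of 354. With TYA-018 the range was 324 to 776 TPM and the median 435, and with SGLT2i it was 307 to 788 TPM with a median of 461. The groups overlapped, but all 11 TYA-018 and all 11 SGLT2i libraries lay above the non_failing median, as did 7 of 8 vehicle libraries. The non_failing range was set by library V2510 at 458 TPM, since the next was 340 TPM. That level was exceeded by 10 of 11 TYA-018, 9 of 11 SGLT2i and 4 of 8 vehicle libraries. Mt1 was 1.55-fold higher with TYA-018 than in non_failing hearts (log2 fold change 0.63, SE 0.17, edgeR adjusted p 0.0137, higher in 11 of 11 libraries). Such tallies, here and below, count the libraries of the first group whose log2 CPM lies above or below the mean log2 CPM of the second group, and on this scale single libraries can stand in another order than in TPM. It was 1.45-fold higher with SGLT2i (log2 0.53, SE 0.17, edgeR adjusted p 0.0447, higher in 9 of 11). The TYA-018 call held in each of 38 fits that left out 1 library, with adjusted p between 0.0072 and 0.0388, but limma on log2(TPM + 1) and on log2(TPM + 0.1) gave 0.0513 and 0.0550. The SGLT2i call held in 18 of 38 such fits and in 4 of 8 other settings, with the largest adjusted p, 0.0994, and a log2 fold change of 0.43 when V2571 was left out. It was also lost, at adjusted p from 0.0503 upward, without any one of V2501, V2502, V2503, V2504, V2507, V2508 and V2509 of non_failing, V2526 of vehicle, V2546, V2549, V2551, V2552, V2559 and V2570 of TYA-018, and V2561, V2565, V2566, V2573 and V2575 of SGLT2i. Against vehicle, Mt1 differed by 0.49 with TYA-018 (SE 0.17, edgeR adjusted p 0.108, higher in 11 of 11 by log2 CPM) and by 0.39 with SGLT2i (SE 0.17, adjusted p 0.388, higher in 9 of 11). Neither passed, and without V2523 the adjusted p values were 0.143 and 0.484. The summed adipocyte markers, of which 1 of 7 passed the filter, ran from 13.2 to 19.1 TPM in non_failing and from 24.4 to 35.9 and 25.2 to 32.8 TPM with TYA-018 and SGLT2i. The 15 hepatocyte markers, cells in which metallothioneins are abundant, went the other way, from 45.4 to 468 TPM in non_failing against 9.0 to 30.8 and 14.3 to 34.5 TPM. The 6 erythrocyte markers were all above 0 against non_failing with both drugs, with a median log2 fold change of 1.11 and 2 called with TYA-018 and a median of 0.37 and none called by edgeR with SGLT2i, where 1 had an unadjusted p under 0.05. Of the 8 cardiomyocyte markers, 1 was called lower with TYA-018 and 4 with SGLT2i. Skeletal muscle Acta1, at 1.52 with TYA-018 and 1.44 with SGLT2i, and atrial Bmp10 were called higher with both. Of 3 tested skeletal muscle markers 2 were below 0 with each drug, with list medians of -0.22 and -0.022. Of 4 tested atrial markers 2 were above and 2 below 0 with each drug, with medians of 0.026 and -0.17. With TYA-018 fibroblast Lum and endothelial Fabp4 were called higher, and of Acta2 and Rgs5 1 was called higher and 1 lower. Fabp4 was the only 1 of 6 endothelial markers above 0 there, and 5 were below 0, with a list median of -0.10. With SGLT2i 1 of the fibroblast markers Pdgfra and Tcf21 was called higher and 1 lower. The part of any of these in the Mt1 values was not tested. The vehicle group itself was 0.15 above non_failing (SE 0.18, edgeR adjusted p 0.732), and ran from 0.086 without V2529 to 0.23 without V2510.

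Mt2, the other metallothionein, was much the lower of the pair. It read 21.3 to 83.7 TPM in non_failing (median 35.8) and 32.4 to 75.9 TPM in vehicle hearts (median 50.6). With TYA-018 it read 28.4 to 132 TPM (median 43.9) and with SGLT2i 29.4 to 178 TPM (median 53.5). Its highest libraries were those of Mt1 in every group: V2510 in non_failing, V2529 in vehicle, V2555 with TYA-018 and V2571 with SGLT2i. The Mt2 difference from non_failing was 0.69 with SGLT2i (SE 0.32, edgeR adjusted p 0.210, higher in 9 of 11) and 0.51 with TYA-018 (SE 0.32, adjusted p 0.365, higher in 9 of 11). These values fell to 0.45 without V2571 and to 0.26 without V2555. Its share of the summed Mt1 and Mt2 TPM averaged 11.5% ± 3.77 (SD, n = 8) in non_failing and ranged from 9.39% to 16.1% (n = 8) in vehicle hearts. The share was 10.8% ± 3.28 (n = 11) with TYA-018 and 12.4% ± 3.05 (n = 11) with SGLT2i, so the proportion between the genes moved by less than the spread between mice. Library V2571, the highest for both, also held the highest sums in its group of the endothelial markers, at 4188 TPM, the erythrocyte markers, at 16043 TPM, and the metal response list, at 21.95 TPM against at most 18.66 TPM in the others. It was the highest too for the macrophage, immediate early and hepatocyte lists, and the part of all these in its metallothionein values was not tested.

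The receptor gene Nr3c1, on chromosome 18, was the steadiest of the 10. Its medians were 8.74 TPM in non_failing, 8.84 in vehicle, 8.31 with TYA-018 and 8.51 with SGLT2i hearts. The 38 libraries ran from 5.69 TPM in V2550 to 11.0 TPM in V2523. Vehicle hearts differed from non_failing by a log2 fold change of -0.030 with a 95% interval of -0.21 to 0.15, and the intervals of the other 5 comparisons lay within -0.23 and 0.16. The groups overlapped throughout.

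Fkbp5 (chr17:28399094-28517527, minus strand of GRCm38, as for the genes below) encodes a chaperone partner that lowers the receptor's grip on its hormone, and it is among the most used readouts of receptor activity. Its medians were 3.71 TPM in non_failing, 5.74 in vehicle, 4.35 with TYA-018 and 4.47 with SGLT2i. The highest library of each group stood well above the rest in 3 groups: 13.6 TPM in V2510 of non_failing (next 7.95), 12.2 TPM in V2529 of vehicle (next 7.19) and 21.8 TPM in V2571 of SGLT2i (next 10.8). In the TYA-018 group the libraries lay between 3.24 and 7.69 TPM. The vehicle difference from non_failing was 0.10 with a 95% interval of -0.65 to 0.86. SGLT2i exceeded vehicle by 0.20 (interval -0.50 to 0.91), a value that turned to -0.18 without V2571, so its direction rested on that library.

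Tsc22d3 (chrX:140539528-140600659, minus strand), whose product GILZ carries anti-inflammatory actions of glucocorticoids, had medians of 36.6 TPM in non_failing, 45.1 in vehicle, 42.1 with TYA-018 and 38.3 with SGLT2i. It was highest in V2530 of vehicle at 80.6 TPM and lowest in V2501 of non_failing at 21.5 TPM. The vehicle difference was 0.21 (SE 0.19, edgeR adjusted p 0.641), and leaving out V2523, its lowest vehicle library, gave 0.29 (adjusted p 0.408), while leaving out V2530, its highest, gave 0.064. Zbtb16 (chr9:48654297-48836222, minus strand), a zinc finger transcription factor also called PLZF, was the most variable. It read 1.22 to 13.8 TPM in non_failing, 1.03 to 8.41 in vehicle, 1.20 to 6.21 with TYA-018 and 1.62 to 9.23 with SGLT2i. The log2 fold change of TYA-018 against vehicle was -0.40, with a 95% interval of -1.26 to 0.45 that spans both directions, and it was -0.22 without V2528. Against non_failing it was -0.53 with TYA-018 (edgeR adjusted p 0.497) and -0.37 with SGLT2i (adjusted p 0.690). Without V2510 these became -0.12 and 0.039.

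Sgk1 (chr10:21882184-21999903, plus strand) encodes a kinase that regulates sodium channels and pumps. It read 39.3 to 109 TPM in non_failing (median 71.3), 62.6 to 123 in vehicle (median 96.2), 65.4 to 97.3 with TYA-018 (median 74.2) and 52.0 to 187 with SGLT2i (median 81.7). Vehicle lay 0.26 above non_failing (SE 0.20, edgeR adjusted p 0.548, higher in 6 of 8 libraries). Without V2523, its lowest vehicle library at 62.6 TPM, the difference was 0.33 with an adjusted p of 0.371. The TYA-018 libraries formed the tightest group, and the SGLT2i range was set by V2571 at 187 TPM, with the next at 134 TPM. Endothelial markers summed to 1491 to 2591 TPM in non_failing and 2014 to 3593 TPM in vehicle hearts, and their part in the Sgk1 values was not tested.

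The set also held 3 transcriptional regulators, Klf9, Klf15 and the clock gene Per1. Klf9 (chr19:23141226-23168134, plus strand), a zinc finger repressor that follows hormone pulses closely, read 17.3 to 27.0 TPM in non_failing (median 21.2) and 15.0 to 23.2 with TYA-018 (median 17.6). Its log2 fold change with TYA-018 against non_failing was -0.28 (SE 0.11, edgeR unadjusted p 0.0162, adjusted p 0.119, lower in 9 of 11), which did not pass. Vehicle and SGLT2i hearts had Klf9 medians of 19.3 and 20.8 TPM. Klf15 lies at chr6:90462576-90475238, plus strand. Its fitted difference from non_failing was below 0 in each HFpEF group, at -0.54 in vehicle (SE 0.30, edgeR adjusted p 0.377, lower in 7 of 8), -0.38 with TYA-018 (SE 0.27, adjusted p 0.450, lower in 6 of 11) and -0.52 with SGLT2i (SE 0.27, adjusted p 0.289, lower in 10 of 11). None of these Klf15 values passed, and the vehicle value ran from -0.83 without V2532 to -0.42 without V2508. Its medians were 7.12 TPM in non_failing, 4.45 in vehicle, 5.22 with TYA-018 and 4.63 with SGLT2i, and vehicle library V2532 reached 10.5 TPM, as high as the top non_failing library. The 3 Klf15 values share the same non_failing mice.

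Per1 (chr11:69095217-69109960, plus strand), a repressor of the circadian clock that glucocorticoids also induce, gave the only member with an unadjusted p under 0.05 between the drugs. It read 10.3 to 25.6 TPM with TYA-018 (median 20.7) and 15.5 to 41.6 TPM with SGLT2i (median 28.2). The difference was -0.43 (95% interval -0.82 to -0.045, edgeR unadjusted p 0.0296, adjusted p 0.320, lower in 9 of 11 TYA-018 libraries). That comparison called 0% of all genes by edgeR, while 13.2% had an unadjusted p under 0.05 and DESeq2 called 184 genes, none of them a member. The time of day of tissue collection is not in the labels. For the other 9 members the 95% intervals between the drugs all included 0, from the narrow -0.18 to 0.12 of Nr3c1 to the widest, -0.95 to 0.63, of Zbtb16.

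V2523 was checked for every member. It was the lowest vehicle library for Tsc22d3, Zbtb16, Sgk1 and Per1, and the highest for Nr3c1 at 11.0 TPM. Leaving it out moved the vehicle mean of Zbtb16 from 4.53 to 5.03 TPM, of Sgk1 from 94.5 to 99.1, of Tsc22d3 from 47.6 to 50.4 and of Per1 from 24.3 to 25.3. Mt1 went from 365 to 375 TPM and Mt2 from 50.3 to 49.3. The log2 fold changes against vehicle or of vehicle moved by at most 0.16, for Zbtb16, and no member passed or lost the test in them. Zbtb16 and Per1 in vehicle against non_failing turned from -0.13 to 0.029 and from -0.061 to 0.0080. Without V2523 the other vehicle differences from non_failing were Nr3c1 -0.057, Fkbp5 0.21, Klf9 -0.14, Klf15 -0.48, Mt1 0.19 and Mt2 0.13, against -0.030, 0.10, -0.20, -0.54, 0.15 and 0.15 with it. The Mt2 value ran from 0.044 without V2529 to 0.34 without V2510. In SGLT2i against vehicle, Nr3c1 turned from -0.0067 to 0.018 and Klf15 from 0.020 to -0.041.

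Single mice of a group also stood apart in several of the 10 genes at once. Non_failing library V2510 was the highest of its 8 for 7 of the 10 genes (Fkbp5, Zbtb16, Sgk1, Klf9, Per1, Mt1 and Mt2) and above the group mean for 9. SGLT2i library V2571 was the highest of 11 for Fkbp5, Tsc22d3, Sgk1, Mt1 and Mt2. Vehicle library V2532 lay above its group mean for all 10 genes, while V2551 with TYA-018 and V2572 with SGLT2i lay below it for all 10. V2561 was the lowest SGLT2i library for 6 genes, Nr3c1 among them. V2510 also held the highest sums in its group of the clock list, at 291 TPM, the metal response list, at 21.6 TPM against at most 17.4 TPM in the others, and the endothelial markers, at 2591 TPM. It was the highest too for the sums of the fibroblast list, the pericyte and smooth muscle list, receptor and ligand handling, receptor coregulators and the other glucocorticoid targets. Their part in its values was not tested.

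**Figure D3:**
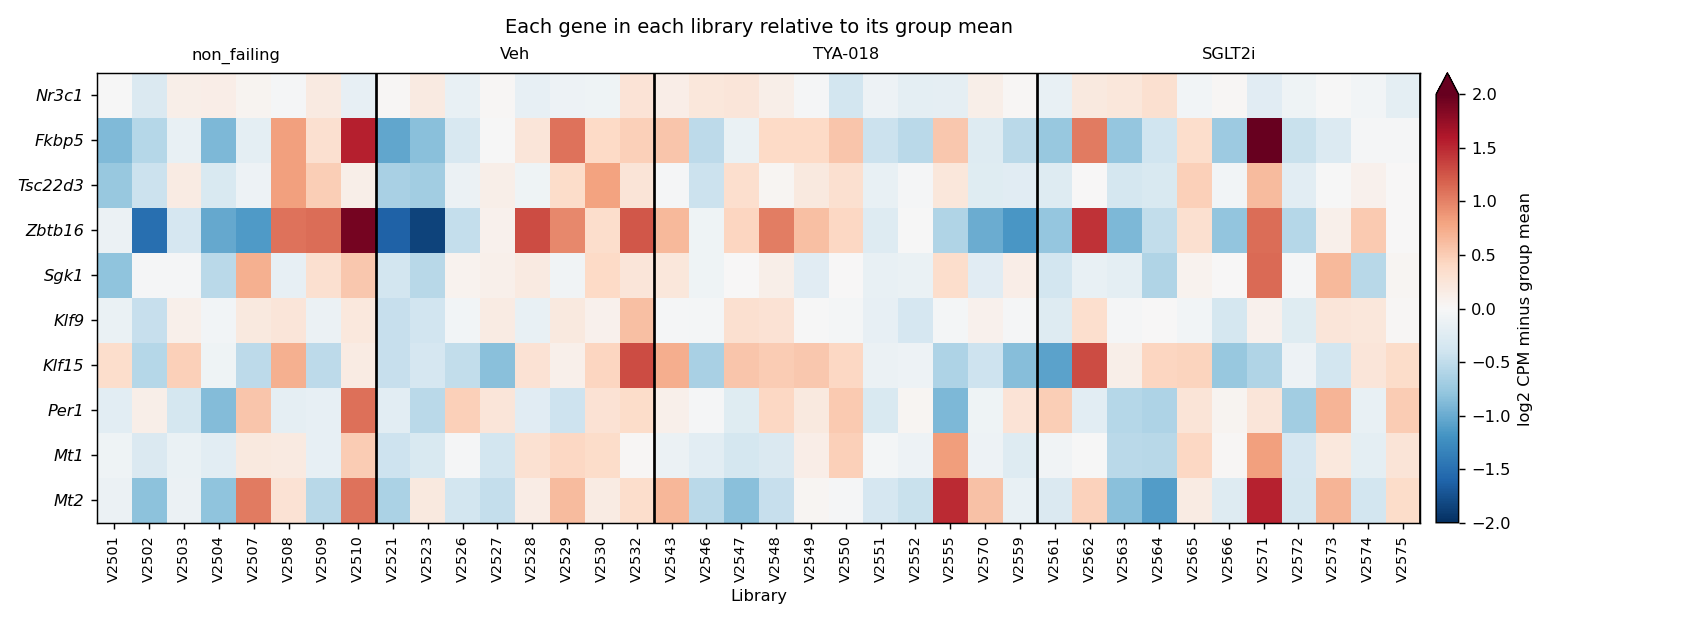
Each of the 10 genes (rows) in each of the 38 libraries (columns, ordered by group) as log2 CPM minus the group mean, with red above and blue below the mean and values over 2 at the darkest red. Columns such as V2510, V2532 and V2571 are mostly red and V2551 and V2572 are blue throughout, while Nr3c1 stays pale.

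How the genes moved together was measured within groups, as the correlation of log2 CPM after subtracting each group's mean, over 38 libraries and 85 pairs in 1 family. Of the 45 pairs among the 10 genes, 36 had a Pearson r above 0, the median r was 0.33, and 19 passed a permutation test at an adjusted p under 0.05, of which 18 were positive. Without V2523 the count was 20. Over all pairs of the 13765 tested genes the median r was -0.001, and 17.1% of pairs had an r of either sign at least as large as 0.443, the smallest that passed among the members, against 42.2% of the member pairs. Fkbp5 and Mt1 each took part in 6 of the pairs that passed, Per1 and Nr3c1 in 1 each. The closest pairs were Mt1 with Mt2 (r 0.82, rho 0.79) and Fkbp5 with Zbtb16 (r 0.81, rho 0.82). Both had a permutation p of 1e-05, the smallest the permutations can give, and an adjusted p of 0.00017. Leaving out the pair of libraries farthest from the median left r at 0.73 for the metallothioneins and 0.80 for Fkbp5 with Zbtb16. Within the 4 groups r ran from 0.72 to 0.93 for Mt1 with Mt2, and from 0.55 to 0.90 for Fkbp5 with Zbtb16. Fkbp5 with Tsc22d3 gave r 0.74 and rho 0.83 (permutation p 1e-05, adjusted p 0.00017), and 0.77 without V2510 and V2571.

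Not all genes joined. The negative pair that passed was Nr3c1 with Mt1 (r -0.60, rho -0.56, permutation p 0.00016, adjusted p 0.00136), at r -0.52 without V2564 and V2550, and the sign was negative in each of the 4 groups, from -0.24 in non_failing to -0.72 with TYA-018. Nr3c1 was also the member that followed depth (r 0.57 with log2 total counts, rho 0.63, permutation p 0.00037, adjusted p 0.00242), at r 0.53 without V2564 and V2550. The part of depth in the Nr3c1 pairs was not tested. Klf15 did not pass with the metallothioneins (r 0.054 with Mt1 and 0.052 with Mt2 over all 38 libraries, though 0.58 and 0.69 within the 8 vehicle libraries and below 0 within each drug group), and passed with Zbtb16 (r 0.58, rho 0.56, permutation p 0.00023, adjusted p 0.00163, r 0.61 without V2523 and V2510) and Klf9 (r 0.53, rho 0.48, permutation p 0.00109, adjusted p 0.00545, r 0.42 without V2502 and V2532). Per1 with the clock output gene Dbp gave r 0.41 and rho 0.36 (permutation p 0.0112 and 0.0294, adjusted p 0.0453 and 0.0933). Without V2555 and V2510 that r fell to 0.25, so it rested in part on these libraries, and without V2523 it was 0.39 with an adjusted p of 0.0664. No member passed with the hepatocyte list or with Fos.

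**Figure D4:**
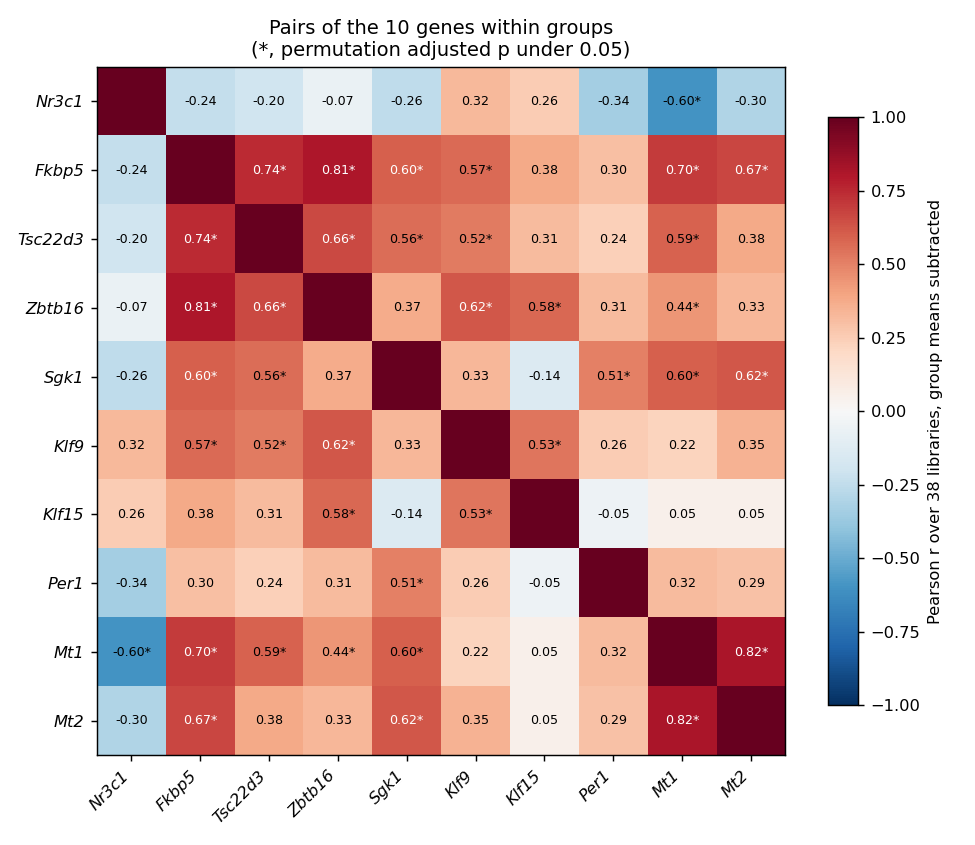
Pearson r between each pair of the 10 genes over 38 libraries after subtracting group means, coloured from -1 to 1, with a star at a permutation adjusted p under 0.05 over 85 pairs. Fkbp5 and Mt1 have 6 starred pairs each, Nr3c1 has the negative one at -0.60, and Klf15 is near 0 with both metallothioneins.

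The genes most like each member over the 38 libraries were ranked by Spearman rho after subtracting group means, among 13764 others, as a description without a test. Fam107a was among the leading 3 for Fkbp5 (rho 0.90), Tsc22d3 (0.88) and Zbtb16 (0.82), and the cell survival gene Bcl2l1 for Fkbp5 (0.89) and Tsc22d3 (0.84). Fam117b followed for Fkbp5 at 0.85, Mylip for Tsc22d3 at 0.86, and Aff1 and Wipf3 led for Zbtb16 at 0.83 and 0.82. Sgk1 was most like S1pr1 (0.85), Gpihbp1 (0.79) and Sox17 (0.78), which are known as genes of endothelial cells. Klf15 ranked with Spsb1 (0.80), Tacc2 (0.79) and Alpk2 (0.76), and Klf9 with Ccdc71l (0.80), Sgms1 and Lrrc58 (both 0.75). Per1 was closest to Kdm6b (0.77), Plk3 (0.75) and Itga5 (0.73). Mt1 and Mt2 were each other's nearest gene at 0.79, followed by Ehd1 and Map3k6 (both 0.75) for Mt1 and by Cyb561 (0.68) and Fbxo34 (0.67) for Mt2. Nr3c1 ranked with Lrp6 (0.90), Rassf3 (0.88) and Ctnnb1 (0.87).

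A list of 30 further genes known as glucocorticoid targets was read from the same fit. In vehicle hearts 4 of 30 were called higher than in non_failing and none lower, with a list median of 0.058 against 0.011 over all genes, of which 3.15% were called. DESeq2 called 3 of the 30, without Lcn2. Angptl4, which inhibits lipoprotein lipase, went from 1.15 to 3.79 TPM in non_failing to 4.39 to 14.1 TPM in vehicle, with no overlap (log2 fold change 1.70, SE 0.33, edgeR adjusted p 0.0019, higher in 8 of 8). Gadd45g, a growth arrest gene, went from at most 22.1 TPM in non_failing to 26.1 to 63.7 TPM in vehicle, also with no overlap (1.18, SE 0.19, adjusted p 0.000275, 8 of 8). Pdk4, the kinase that shuts off pyruvate dehydrogenase, was higher by 0.68 (SE 0.20, edgeR adjusted p 0.0457, 8 of 8), a call kept in 17 of 38 fits that left out 1 library and in 5 of 8 other settings. It was lost without V2523, at 0.54 with an adjusted p of 0.102, and without V2504, at an adjusted p of 0.105. Angptl4 and Gadd45g were called without V2523 too, at 1.66 and 1.20 (edgeR adjusted p 0.00259 and 0.00029). In the same comparison the adipocyte sums did not overlap, at 13.2 to 19.1 TPM in non_failing and 20.9 to 30.2 TPM in vehicle. Only 1 of the 7 adipocyte markers passed the filter, Cidea, which was called higher at 0.69. There 4 of 8 cardiomyocyte markers were called lower and 2 of 6 fibroblast markers higher, while all 6 erythrocyte markers had an unadjusted p under 0.05 with a median of 1.27 and none was called by edgeR. Of 3 tested skeletal muscle markers, with a median of 1.48, 2 were called higher, Acta1 and Tnnt3. The atrial marker Bmp10 was called higher and the pericyte marker Rgs5 lower. Their lists were mixed: 2 of 4 tested atrial markers were below 0, with a median of -0.066. Of 6 pericyte and smooth muscle markers 4 were above 0, with a median of 0.049. The part of these in the Angptl4, Gadd45g and Pdk4 values was not tested. Lcn2, which encodes an iron-scavenging lipocalin, read 95.5 TPM in V2523 against at most 4.31 in the other vehicle libraries. The fitted difference was 3.12 on the log2 scale (SE 0.71, edgeR adjusted p 0.00873, higher in 6 of 8) and became 0.60 without V2523 (adjusted p 0.427). This call was kept in 37 of 38 fits that left out 1 library and in 4 of 8 other settings.

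The drugs against vehicle each gave 1 call of 30 by edgeR, where 1.93% of all genes were called with TYA-018 and 0.85% with SGLT2i. DESeq2 called none of the 30 with TYA-018, and Pdk4 and Angptl4 with SGLT2i. With SGLT2i, Pdk4 was higher by 0.86 (SE 0.18, edgeR adjusted p 0.00865, higher in 11 of 11), in all 38 fits that left out 1 library and in 5 of 8 other settings. It was lost with both limma fits and with only the 2 groups compared, and the highest adjusted p was 0.186, with limma on log2(TPM + 0.1). Without V2523 it was 1.00 with an adjusted p of 0.0264. In SGLT2i against vehicle 5 of 6 erythrocyte markers were lower, with a median of -0.88. There 5 erythrocyte and 3 of 6 fibroblast markers had an unadjusted p under 0.05, against 10% of all genes, and none was called by edgeR. The hepatocyte sum was 1884 TPM in V2523 and at most 58.2 TPM in the other vehicle libraries. Its group medians were 29.0 TPM in vehicle, 20.0 with TYA-018 and 20.5 with SGLT2i. With V2523 included, all 15 hepatocyte markers and the skeletal muscle marker Tnnt3 were called lower with each drug against vehicle. The part of these in the values against vehicle was not tested. With TYA-018, Lcn2 was lower (log2 fold change -2.26, SE 0.61, edgeR adjusted p 0.0410, lower in 10 of 11), which turned to 0.27 with an adjusted p of 0.722 without V2523. The Lcn2 call was kept in 28 of 38 fits that left out 1 library and in 4 of 8 other settings. It was also lost without any one of V2546, V2547, V2548, V2549, V2550, V2551, V2552, V2555 and V2559 of TYA-018. Against non_failing, 3 of the 30 were called by edgeR in each drug group, Angptl4, Gadd45g and Pdk4, all higher, where 7.39% of all genes were called with TYA-018 and 6.45% with SGLT2i. DESeq2 called the same 3 in each and, with TYA-018, also Lcn2 as higher, for which edgeR gave 0.86 (SE 0.65, adjusted p 0.471). Angptl4 was higher by 2.10 with TYA-018 and 2.69 with SGLT2i, Pdk4 by 0.92 and 1.54, and Gadd45g by 0.78 and 0.82, with edgeR adjusted p of at most 0.0055, and all 6 calls held in all 38 fits that left out 1 library. For Angptl4 the 11 TYA-018 and the 11 SGLT2i libraries lay above all 8 non_failing libraries, and for Pdk4 the 11 SGLT2i libraries did. The share of all tested genes whose groups lay apart in this way is not given, here or for vehicle hearts. The adipocyte sums did not overlap with those of non_failing either, at 24.4 to 35.9 TPM with TYA-018 and 25.2 to 32.8 TPM with SGLT2i. Of these 7 markers only Cidea was tested, and it was called higher at 0.96 and 0.90. The erythrocyte, cardiomyocyte and other called markers moved as given with Mt1, and the part of these markers was not tested. Between the drugs, edgeR called none of the 30, of which 3 had an unadjusted p under 0.05, against 13.2% of all genes. Of the 30, 25 were lower with TYA-018, with a median of -0.14 against -0.0054 over all genes. DESeq2, which called 184 of 11449 genes there, called Pdk4 lower with TYA-018, for which edgeR gave -0.62 (SE 0.17, adjusted p 0.103, lower in 10 of 11).

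**Figure D5:**
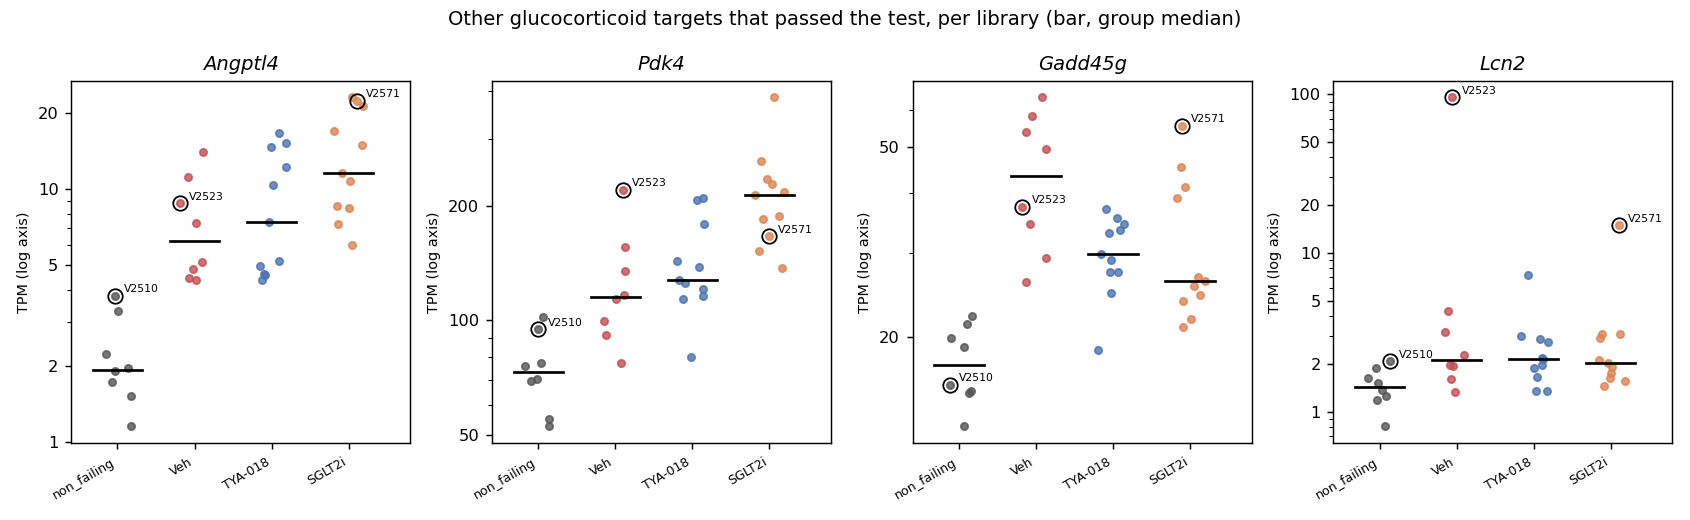
Level of the 4 other glucocorticoid targets that passed the test in a comparison, in TPM on a log axis, with 1 point per library, a bar at the group median and circles on V2510, V2523 and V2571. Angptl4 and Gadd45g in vehicle lie above all non_failing libraries, Pdk4 is highest with SGLT2i, and the Lcn2 difference in vehicle is the point of V2523 at 95.5 TPM.

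Genes that act on the receptor or its hormone were read in the same way. Of 5 tested genes of receptor and ligand handling, none was called by edgeR or DESeq2 in vehicle hearts or by a drug against vehicle, and 3, 1 and 0 had an unadjusted p under 0.05 there, where 15.9%, 17.5% and 10% of all genes did. In vehicle against non_failing 4 of the 5 were below 0, with a median of -0.24 against 0.011 over all genes. Hsd11b1, which regenerates active corticosterone within cells, had medians of 12.2 TPM in non_failing and 11.1 in vehicle, and the mineralocorticoid receptor Nr3c2 had medians of 2.39 and 2.08 TPM, both named for their roles after their values were seen. Against non_failing, the steroid exporter genes Abcb1a (log2 -0.35, edgeR adjusted p 0.0438) and Abcb1b (-0.38, adjusted p 0.0315) were lower with TYA-018 in 11 of 11 libraries each, and Abcb1b was lower with SGLT2i (-0.36, adjusted p 0.0463, 9 of 11). These 3 calls were kept in 27, 33 and 24 of 38 fits that left out 1 library and in 4, 5 and 2 of 8 other settings. The highest adjusted p among the fits that left out 1 library were 0.130 without V2510 for Abcb1a, and 0.0911 and 0.125 without V2507 for Abcb1b, and among the other settings they were 0.302, 0.121 and 0.166, all with limma on log2(TPM + 0.1). As the 2 Abcb1 genes are close copies, the split of their reads is uncertain. Of 11 receptor chaperone genes, 1 was called in each drug group against non_failing, a share near the 7.39% and 6.45% of all genes. It was the HSP40 gene Dnajb1, lower with TYA-018 (log2 fold change -0.59, SE 0.14, edgeR adjusted p 0.00517, lower in 10 of 11) and with SGLT2i (-0.45, SE 0.14, adjusted p 0.0353, lower in 10 of 11). The TYA-018 call held in all 38 fits that left out 1 library and in 8 of 8 other settings, and the SGLT2i call in 28 and 5, with an adjusted p of 0.120 without V2502. None of the 11 receptor coregulators and none of the 5 tested metal response genes was called by edgeR in any of the 6 comparisons. At most 1 coregulator and 2 metal response genes had an unadjusted p under 0.05 in a comparison. Over all genes that share ran from 10% to 22% between the comparisons. DESeq2 called 1 coregulator, Ncoa2, lower with TYA-018 against non_failing, and no metal response gene.

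Of 14 clock genes, 1 was called in each drug group against non_failing, again a share near the 7.39% and 6.45% of all genes. These were Nr1d1 with TYA-018 (-0.76, SE 0.23, edgeR adjusted p 0.0322, lower in 9 of 11) and Hlf with SGLT2i (-0.62, SE 0.19, adjusted p 0.0382, lower in 11 of 11). The Nr1d1 call was kept in 32 of 38 fits that left out 1 library and in 7 of 8 other settings, and the Hlf call in 29 and 4, with adjusted p of 0.0660 without V2510 for Nr1d1 and 0.103 without V2508 for Hlf. In these comparisons 12 of the 14 were below 0 with TYA-018 and 13 with SGLT2i, with medians of -0.25 in both against 0.0052 and 0.0054 over all genes. At an unadjusted p under 0.05 stood 6 of 14 with TYA-018, against 22% of all genes, and 3 of 14 with SGLT2i, against 19.6%. Vehicle against non_failing, which shares the same non_failing mice, had 12 of 14 below 0 and none called by edgeR or DESeq2. There 2 of 14 had an unadjusted p under 0.05, against 15.9% of all genes. None of 10 immediate early genes was called by edgeR in any comparison, while DESeq2 called 1, Ier2, lower with SGLT2i than with vehicle. In the edgeR fit 8 of 10 were above 0 in vehicle against non_failing, with a median of 0.14. Below 0 against non_failing were 8 of 10 with TYA-018 and 9 of 10 with SGLT2i, with medians of -0.13 and -0.35. All 10 were below 0 with each drug against vehicle, with list medians of -0.37 for TYA-018 and -0.44 for SGLT2i. Of these, 3 and 4 of 10 had an unadjusted p under 0.05, where 17.5% and 10% of all genes did. Both drugs are compared here with the same 8 vehicle mice, V2523 among them. V2523 held a hepatocyte sum of 1884 TPM, against at most 58.2 TPM in the other vehicle libraries. With it included, all 15 hepatocyte markers were called lower with each drug against vehicle. With SGLT2i 5 of 6 erythrocyte and 3 of 6 fibroblast markers had an unadjusted p under 0.05 there. With TYA-018 these counts were 0 and 2, beside 4 of 8 cardiomyocyte markers. The part of these in the immediate early values was not tested.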

How the data were processed

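Left ventricles of 38 mice were read by bulk RNA-seq. The authors quantified transcripts and deposited estimated counts, TPM and effective lengths per gene, which is the unit other than counts and TPM and was used for an offset alone. The submitters' processing notes name Salmon 1.6.0 and the human build hg38, but the symbols are mouse and the study's methods name GRCm38, which is used here. Total counts were 21451631 to 59280407 per library, and no per-sample column was left unmapped (0). The deposited estimated counts were rounded, filtered with filterByExpr and scaled by TMM. A single edgeR 4.0.16 quasi-likelihood model of the 4 groups gave 6 comparisons, with Benjamini-Hochberg adjustment over 13765 genes and a threshold of 0.05. The deposited TPM served for levels. Nothing in the labels ties libraries to cages or batches, so p-values measure the spread between the mice read.

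Pairs were tested on log2 CPM (prior count 2) minus the group mean with 100000 permutations within groups, two-sided, and adjusted over 85 pairs. The alternatives were library size alone, RLE factors, no filter, a length offset, limma 3.58.1 on log2(TPM + 1) and log2(TPM + 0.1), DESeq2 1.42.0, fits of only the 2 groups compared, and leaving out each of 38 libraries. The scripts ran in R 4.3.3 and Python 3.11.15. On data simulated for vehicle against non_failing over 13677 genes, 45% of genes changed by 0.5 on the log2 scale and 81% of those changed by 1 were recovered, and 6.67% of calls were false. The members and lists were chosen with earlier results of these data known. The genes named were all members, the called genes of each list where they were 5 or fewer, and the 3 genes most like each member. Hsd11b1 and Nr3c2, and Ncoa2 and Ier2, called by DESeq2 alone, were named beyond that rule, after their values were seen.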

Additional observations from a re-analysis of the deposited data

Results flagged for a closer look

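In groups of 4 to 10 libraries, a highest or lowest value was marked when its gap to the next, divided by the range, passed Dixon's 95% limit, which for 8 libraries is 0.526. Of 20 such groups tested for the 10 genes, 3 were marked, and chance marks about 1 in 20. Per1 read 49.9 TPM in library V2510 of non_failing, with a gap of 0.615 of the range. Mt1 read 458 TPM in the same library, with a gap of 0.595. Fkbp5 read 12.2 TPM in library V2529 of HFpEF+Veh, with a gap of 0.535. V2529 also held the highest sum of erythrocyte markers, at 41877 TPM, whose part in its Fkbp5 value was not tested. The groups of 11 were not tested in this way.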

How the results depend on the processing

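No paired analysis was possible because the mouse numbers in the labels differ in every group. The count of members called fell from 1 to 0 for TYA-018 against non_failing with either limma fit, and for SGLT2i against non_failing with library size alone, no filter, limma on log2(TPM + 0.1) and only the 2 groups compared, and it ran from 0 to 1 when single libraries were left out. No other count of members called changed. The log2 fold changes whose direction turned had not passed the test, and ran from -0.37 to 0.30. In vehicle against non_failing, library size alone, limma on log2(TPM + 1) and limma on log2(TPM + 0.1) gave Nr3c1 0.044, 0.036 and 0.039 and Per1 0.0062, 0.11 and 0.11, and the limma fits gave Zbtb16 0.024 and 0.029. In SGLT2i against vehicle, those 3 settings and the length offset gave Klf15 -0.043, -0.070, -0.079 and -0.023, the limma fits gave Fkbp5 -0.0056 and -0.011, and the length offset gave Nr3c1 0.037. In TYA-018 against SGLT2i both limma fits gave Mt1 -0.017. In TYA-018 against non_failing the limma fits and the length offset gave Fkbp5 0.12, 0.15 and 0.025. In SGLT2i against non_failing, library size alone and the length offset gave Tsc22d3 -0.00094 and -0.0066, and the limma fits gave Nr3c1 0.010 and 0.011. The cause was not tested. Leaving out single libraries turned the direction of 21 values, whose ranges follow. For SGLT2i against vehicle these were Fkbp5 from -0.18 to 0.40, Klf15 from -0.17 to 0.31, Nr3c1 from -0.045 to 0.037 and Sgk1 from -0.16 to 0.058. For SGLT2i against non_failing these were Fkbp5 from -0.076 to 0.64, Tsc22d3 from -0.079 to 0.15 and Zbtb16 from -0.58 to 0.039. For TYA-018 against SGLT2i these were Fkbp5 from -0.39 to 0.068, Mt1 from -0.0073 to 0.20, Mt2 from -0.42 to 0.055, Nr3c1 from -0.060 to 0.0030, Sgk1 from -0.21 to 0.0049 and Zbtb16 from -0.29 to 0.053. For TYA-018 against vehicle these were Fkbp5 from -0.22 to 0.090, Klf9 from -0.14 to 0.020, Nr3c1 from -0.068 to 0.0037 and Tsc22d3 from -0.12 to 0.10. For TYA-018 against non_failing these were Fkbp5 from -0.12 to 0.33. For vehicle against non_failing these were Fkbp5 from -0.098 to 0.44, Per1 from -0.16 to 0.16 and Zbtb16 from -0.32 to 0.28. Library size alone moved the median of all genes by -0.13 in TYA-018 against vehicle. The lowest count of a member in any library was 113, and the within-group SD of log2 CPM ran from 0.17 for Nr3c1 to 0.98 for Zbtb16. The age of the mice and the hour of collection are not in the labels.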
